A study of Mus musculus with 12 samples.

Results

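Spermatogenesis carries a germ cell from meiosis to a sperm. Pachytene spermatocytes (PS) are cells of mid-prophase, in which paired chromosomes recombine and the unpaired X and Y chromosomes lie silenced in the sex body. Round spermatids (RS) are the haploid cells after both divisions. They begin to build the acrosome and the tail, and they store mRNA for the transition proteins and protamines that later replace histones. All genes were compared between control RS and control PS, 3 libraries of each, out of 12 libraries in the series. The control mice were Hdac3fl/+, with a floxed and a normal Hdac3 allele, and carry the genotype label wild type, with no Cre in their titles. HDAC3 is a histone deacetylase of corepressor complexes. The other 6 libraries came from PS and RS of Stra8-cre/Hdac3fl/- mice (KO), in which Cre is driven by a promoter of germ cells that enter meiosis. The sources used here give neither their ages nor the way cells were isolated. Total RNA was sequenced from stranded libraries, and the submitters call the 3 libraries of a group biological replicates. P-values therefore rest on the spread between these libraries.

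Total gene counts were 12137427 to 17467583 per control PS library and 13089105 to 17393447 per control RS library. In each group 1 library matches its group and no single sample title, and it is called the remaining library. Values of 3 libraries are given in the order replicate 1, replicate 3 and remaining library, in CPM (counts scaled to the library total), which compares libraries and not genes of different length. The PS and RS libraries were deposited in separate count tables, so cell type and table cannot be told apart. In bulk RNA, fewer cells of a type and less RNA per cell cannot be told apart either.

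The step from PS to RS changed most of the genes tested, and the rises and falls differed in shape. Of 15572 genes tested with edgeR's quasi-likelihood test, 4541 were higher in RS and 4388 were lower at an adjusted p under 0.05. That is 57.3% called, 29.2% higher and 28.2% lower, and the median log2 fold change (RS minus PS) of all genes was -0.02. The median of the genes that rose was 1.75 and that of the genes that fell was -1.28. A separate peak of rising genes stood near a 4-fold change: 1325 genes lay between 2 and 2.5 on the log2 scale, more than the 1019 between 1.5 and 2 or the 329 between 2.5 and 3. Rises thinned out above this peak, with 66 genes past 8-fold and 0 past 32-fold, while 242 genes fell by over 8-fold and 13 by over 32-fold. Against a test for a change of over 2-fold, 2557 genes rose and 1577 fell.

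**Figure D1:**
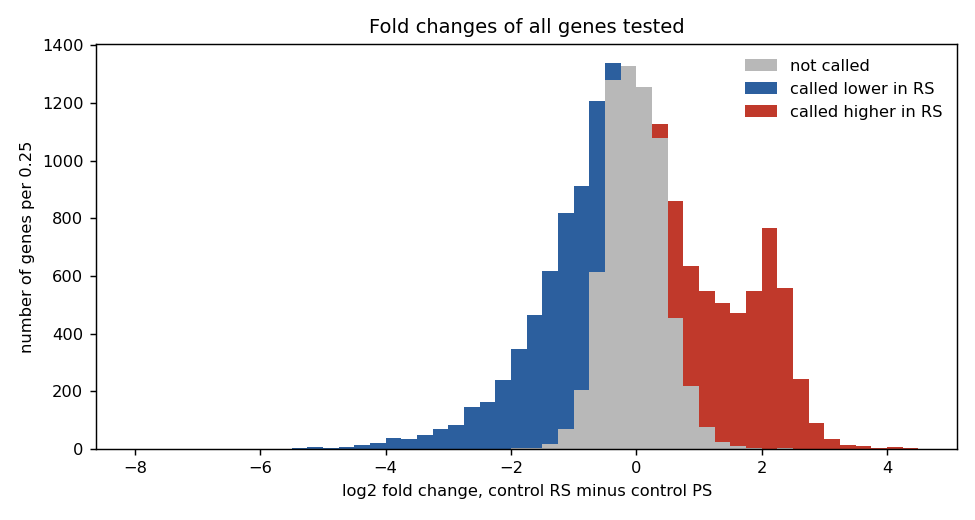
Number of genes (y axis) per 0.25 of log2 fold change, control RS minus control PS (x axis), for all 15572 genes tested; colours mark genes called higher, called lower or not called. The falls tail off to the left, and the rises form a second peak between 2 and 2.5, with few genes beyond 3.

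Most genes that rose strongly were also detected in PS. Of the 1717 genes that rose by over 4-fold, 1681 had at least 1 count in every PS library. Their mean level in PS was 23.9% of that in RS at the median, with quartiles of 21% and 26.2%, and 4 genes were under 5%. Their summed level was 30556, 38318 and 40667 CPM in PS and 141705, 180623 and 150994 CPM in RS. Among the 874 genes that fell by over 4-fold, the RS level was 14.5% of the PS level at the median, and 50 genes were under 5%. The 23.9% and the 14.5% were bounded by the choice of these genes by fold change. They were taken from CPM, without the scaling factors (TMM) of the fit, which were 1.02 to 1.18 in PS and 0.902 to 0.970 in RS. Only 12 genes rose from under 1 CPM in PS to at least 5 CPM in RS, and 103 genes fell from at least 5 CPM to under 1 CPM. The 12 listed markers of round spermatids summed to 1329, 2430 and 3336 CPM in PS and 7855, 18665 and 11340 CPM in RS. The part of spermatids carried with the PS samples in these values was not tested.

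Defining markers of both cell types were read beside the labels. The marker lists were chosen with earlier results of these data known, so they are not an independent check of the labels. Of 12 round spermatid markers 11 rose and 0 fell, with a median log2 fold change of 2.28. Of 11 pachytene markers 6 fell and 1 rose, with a median of -0.54. Mlh3, a crossover factor of pachynema, was at 106, 98.5 and 104 CPM in PS and at 19.9, 15.9 and 18.2 CPM in RS (log2 fold change -2.30, SE 0.178, adjusted p = 5.07e-06). Stag3, Ccna1, Spag6l and Hspa2 were not called, though Spag6l was called lower without the remaining PS library (-0.53, adjusted p = 0.0157) and with scaling by library size only. Hspa2, a chaperone linked to the synaptonemal complex, was at 1611, 1527 and 1943 CPM in PS and at 1196, 1078 and 1355 CPM in RS (log2 fold change -0.26, adjusted p = 0.220).

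Genes for the nuclear proteins of the sperm head were among the largest rises. Transition proteins and protamines are the basic proteins that package sperm DNA, and their mRNAs are stored in RS before use. Prm2 (protamine 2) was at 424, 864 and 1177 CPM in PS and at 3277, 8359 and 3861 CPM in RS, with a log2 fold change at 2.91 (SE 0.381, adjusted p = 0.00012). Prm1 (protamine 1) was at 143, 412 and 538 CPM in PS and at 1210, 4289 and 1776 CPM in RS, with a log2 fold change at 2.99 (SE 0.473, adjusted p = 0.000433). In both genes every RS library lay above every PS library, and replicate 3 of RS was more than 2-fold above the other two; without it Prm1 was at 2.27. Tnp2 (transition protein 2) was at 182, 397 and 511 CPM in PS and at 1411, 3288 and 1825 CPM in RS (log2 fold change 2.83, adjusted p = 8.87e-05). Tnp1 (transition protein 1) was at 15.9, 36.8 and 454 CPM in PS and at 126, 419 and 1630 CPM in RS. It was higher in RS within each replicate number, but the groups overlapped and the test did not call it (log2 fold change 2.39, SE 1.0, adjusted p = 0.0717). The fit with the replicate number as a block has 2 residual degrees of freedom, and its error is partly shared over all genes. Its p-values therefore do not rest on the pairs of a single gene alone. In that fit Tnp1 was called higher (2.99, adjusted p = 1.68e-23). It was also called without RS replicate 1 (2.89, adjusted p = 0.0217), RS replicate 3 (2.65, adjusted p = 0.0408) or the remaining PS library (4.90, adjusted p = 0.00426), with limma-voom (3.02) and with no filter (2.36). It was most abundant in the remaining library of both cell types, in contrast to the other 3 genes in RS.

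Of the 17 transition proteins, protamines and testis histones tested, 10 rose and 2 fell, with a median log2 fold change of 1.87 against -0.02 for all genes. The spermatid linker histones H1fnt (2.52) and Hils1 (2.44) and the short histone variant H2afb1 (2.80, and 2.02 without RS replicate 3) rose with Prm3 (2.66). The histone variant genes H2afx and H2afz fell by 0.98 and 0.89 on the log2 scale. Chromatin factors linked to histone removal went the other way as a list, with 3 higher and 10 lower of 24 and a median of -0.51. The 2 largest rises were Cdyl, which reads and modifies histone acylation (59.6 ± 8.3 CPM in PS and 222 ± 4.2 in RS, SD, n = 3, log2 fold change 2.13), and Chd5, a chromatin remodeller needed for the histone exchange in mouse spermatids (177 ± 17.5 and 649.6 ± 210.4 CPM, 2.1). Trrap, the scaffold of histone acetyltransferase complexes, was at 254, 162 and 284 CPM in PS and at 45.3, 18.5 and 36.5 CPM in RS (-2.58). Psma8, the testis proteasome subunit, fell by 2.22. Brdt, the testis bromodomain protein that binds acetylated histones during their removal, was not called (log2 fold change -0.10, adjusted p = 0.623).

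**Figure D2:**
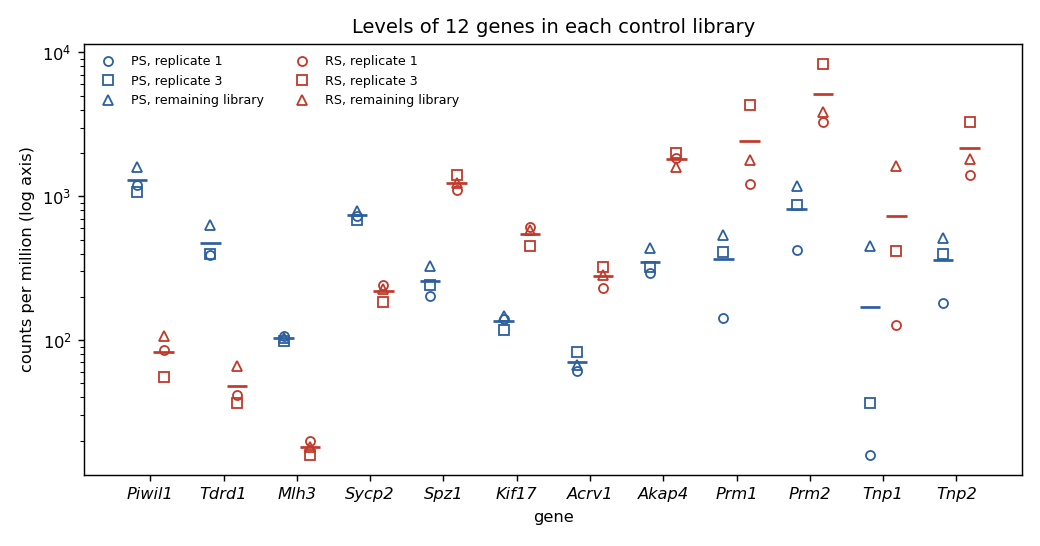
CPM on a log axis (y axis) of 12 genes (x axis) in each control library; symbols mark the replicate, blue PS, red RS, and bars the mean of 3 libraries. Piwil1, Tdrd1, Mlh3 and Sycp2 lie lower in RS and Spz1 to Prm2 and Tnp2 higher, and Tnp1 is the gene whose groups overlap.

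Meiotic genes did not fall as a block. Of 14 synaptonemal complex, axis and cohesin genes 5 rose and 5 fell (median -0.16). Of all genes tested 29.2% rose and 28.2% fell. The shares of this list and of the recombination genes below were not far from these. Sycp2, a lateral element protein, was at 731, 688 and 793 CPM in PS and at 241, 185 and 228 CPM in RS, with a log2 fold change at -1.54 (SE 0.174, adjusted p = 3.12e-05). Tex12 (-1.33), Hormad1 (-1.32) and Sycp3 (-1.05) fell as well, and Sycp1 (-0.54) was called but not without PS replicate 3, the remaining PS library, RS replicate 1 or the remaining RS library (adjusted p = 0.13, 0.122, 0.152 and 0.109). Rec8, the meiotic kleisin of cohesin, went up from 47.1, 46.7 and 44.4 CPM in PS to 169.6, 164 and 180.2 CPM in RS (2.11, SE 0.166, adjusted p = 5.23e-06), with no overlap. Syce2, of the central element, rose by 1.85 and the kleisin Rad21l by 1.66. Among 24 recombination genes 8 fell, led by Mlh3 and Spata22 (-2.02), and 7 rose (median -0.11), among them Tex15 (2.12) and the early prophase genes Dmc1 (1.61) and Prdm9 (1.78). Of 16 sex body and silencing genes 7 fell and 6 rose (median -0.53): Mdc1 (-1.55), Topbp1 (-1.42) and Atr (-1.31), which spread the damage signal over unsynapsed chromatin, fell, and Zfy1 (2.18) and Zfy2 (2.28), Y-linked zinc finger genes, rose.

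The list of pachytene transcription regulators and the piRNA pathway had the lowest median of the meiotic lists. The pathway makes small RNAs that guide PIWI proteins against transposons and other transcripts. Of 23 members tested, 14 fell and 2 rose, with a median of -0.92. Piwil1, the PIWI protein of pachytene piRNAs, was at 1196, 1068 and 1603 CPM in PS and at 86.0, 55.5 and 107 CPM in RS (log2 fold change -3.74, SE 0.229, adjusted p = 5.07e-06). This was a 15.6-fold fall of the mean, and the groups lay far apart. The Tudor domain proteins of its granules fell with it: Tdrd5 by 3.67, Tdrd1 by 3.08 and Tdrkh by 1.34 on the log2 scale, and so did the nuclease Pld6 by 2.62. Mybl1, the transcription factor that switches on pachytene piRNA precursors, was at 156, 156 and 107 CPM in PS and at 72.0, 47.7 and 45.8 CPM in RS (-1.13, adjusted p = 0.00273). Ddx4, Ddx25, Tdrd6, Tdrd7, Rnf17 and Mael, of germ cell RNA granules such as the chromatoid body, were not called, with values from -0.18 to 0.27. Gtsf1 rose (1.10), and Btbd18 (1.16) was called with overlapping groups and was not called without PS replicate 1 (0.94, adjusted p = 0.0655), without PS replicate 3 (0.99, adjusted p = 0.0506) or without the remaining RS library (0.99, adjusted p = 0.0579). Of 34 germ cell RNA-binding genes 13 fell and 5 rose (median -0.15), with Rbm46 and Rbm5 both at -1.96 and Elavl2 at 2.17, and 8 of them rose without the remaining PS library.

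Of 33 genes of the meiotic divisions 14 fell and 9 rose (median -0.26). Fbxo43, the inhibitor of the anaphase-promoting complex also known as EMI2, was at 122, 90.2 and 94.2 CPM in PS and at 12.6, 6.15 and 11.6 CPM in RS (-3.13, SE 0.267, adjusted p = 7.93e-06). Cks2, a partner of cyclin-dependent kinases needed for meiosis I in mouse, fell by 2.82. The cell cycle activators Ccnb3 (2.42), Cdc25c (1.77), Cdc25a (1.26) and Ccnb1 (1.11) rose. Cdk1, the kinase that they activate, fell (-1.23, adjusted p = 0.000446), and so did Cdc20 (-0.71), an activator of the anaphase-promoting complex, and the spindle kinase gene Aurkb (-1.43). Ccnb3 was low in all libraries, at 0.801, 0.831 and 2.80 CPM in PS and at 4.43, 5.98 and 9.17 CPM in RS (3.11 without the remaining PS library).

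Structural genes of the sperm split into those that rose about 4-fold and those that were not called. Of 43 genes of the acrosome, the secretory cap of the sperm head, 30 rose, 1 fell and 12 were not called, with a median of 2.19. The log2 fold change was over 2 in 25 members, between 1 and 2 in 2, and within 0.5 of no change in 11. Acrv1, an acrosomal matrix protein, was at 60.9, 82.8 and 66.7 CPM in PS and at 230.2, 321 and 282 CPM in RS (2.20, SE 0.197, adjusted p = 8.9e-06). Actrt1 (2.62), Prss55 (2.54), Spaca1 (2.31) and Zp3r (2.33) rose with it. The acrosome genes Acrbp (0.38), Spink2 (-0.04), Zpbp2 (0.21) and Dpy19l2 (0.17) were not called, though Acrbp was called higher with the replicate block (0.40, adjusted p = 0.0217). Acr, the acrosomal protease, was called at a small rise (0.63, adjusted p = 0.0119) that was lost with scaling by library size only (0.41, adjusted p = 0.0509) and without the remaining RS library (0.54, adjusted p = 0.0693). Gopc, a Golgi protein needed for acrosome formation in mouse, was the 1 member that fell (-2.21).

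Genes of sperm-egg fusion and their chaperones showed the same split, with 13 higher, 2 lower and 8 not called of 23 (median 2.01). Izumo1, the sperm ligand of the egg receptor Juno, was at 36.4, 39.4 and 33.4 CPM in PS and at 127, 140.1 and 143 CPM in RS (2.12). Tmem95 (1.91), Spaca6 (2.01), Dcst1 (2.07) and the chaperones Pdilt (2.22) and Calr3 (2.29) rose too. Adam2 (-0.38), Adam3 (0.46) and the chaperone Clgn (-0.25), which are needed for sperm migration in mouse, were not called. With the replicate block Adam2 (-0.37, adjusted p = 0.0284) and Adam3 (0.48, adjusted p = 0.0106) were called, as was Adam2 without the remaining PS library (-0.49, adjusted p = 0.0324) and Adam3 without PS replicate 1 (0.61, adjusted p = 0.0269). Tpst2 fell (-1.44), and so did Tex101 (-1.06), which was not called without the remaining PS library (-0.77, adjusted p = 0.0705).

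In the tail the accessory structures rose and the axoneme did not rise as a list. Of 24 genes of the fibrous sheath and outer dense fibres 19 rose and 2 fell (median 2.13). Akap4, the main fibrous sheath protein, was at 292, 319.8 and 435 CPM in PS and at 1833, 2006 and 1603 CPM in RS (2.62, SE 0.192, adjusted p = 5.07e-06). Odf1 (2.41), Ropn1 (2.48), Oaz3 (2.46) and Cabyr (2.17) rose by similar amounts, and Odf2, of the outer dense fibres, went from 2793, 2511 and 2703 CPM to 4772, 4451 and 5064 CPM (1.05). The tubulins Tuba3a (-0.60) and Tuba3b (-0.78), near-identical copies whose reads may be split by the counting, fell, though Tuba3a was not called without the remaining RS library (-0.59, adjusted p = 0.0648). Of 43 axoneme genes 12 rose, 11 fell and 20 were not called (median 0.08), near the 29.2% higher and 28.2% lower of all genes tested. The tektins Tekt1 to Tekt5, filaments inside the tubules, all rose, from 0.73 to 1.63. The dynein heavy chains Dnah8 (-1.11) and Dnah2 (-1.65, and -2.24 without RS replicate 1) fell, as did Ift20 (-1.5), a transport protein of growing tails. Dnah8 was at 3614, 2921 and 2457 CPM in PS and at 1824, 798 and 966 CPM in RS.

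The CatSper calcium channel of the tail was split by subunit. The pore subunits Catsper1 (2.09), Catsper3 (2.24) and Catsper4 (2.17) rose with the calcium sensor Efcab9 (2.25), while Catsper2, the other pore subunit, was not called (0.26). Catsper1 was at 52.4, 61.6 and 56.5 CPM in PS and at 212, 179 and 235 CPM in RS. The auxiliary subunits Catsperd (-1.05), Catsperg1 (-0.89) and Catsperg2 (-0.99) fell. Catsperb (-0.60) was called too, but not without PS replicate 1, PS replicate 3, RS replicate 3 or the remaining RS library (adjusted p = 0.131, 0.0794, 0.0591 and 0.171), and the paralogs Catsperg1 and Catsperg2 may share reads. Catsperg1 was at 597, 463 and 527 CPM in PS and at 303, 197 and 239 CPM in RS, and no RS library reached a PS library. Across 19 channel and ion transport genes 8 rose and 7 fell (median 0.26), and Pkd2l1, a channel of the polycystin family, had the largest fall (-3.28).

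Regulators and enzymes of spermatids rose as well. Of 20 spermatid transcription regulators 13 rose and 1 fell (median 0.94). Spz1, a testis leucine zipper factor, was at 203, 241 and 325 CPM in PS and at 1110, 1395 and 1228 CPM in RS (2.52, SE 0.191, adjusted p = 5.07e-06). Fhl5 (ACT), the coactivator of CREM, rose by 2.40 and Kif17, the kinesin that moves ACT in mouse spermatids, by 2.24. Crem itself, the master activator of spermatid genes, changed less, from 185, 219 and 156 CPM to 286, 342 and 288 CPM (0.92, adjusted p = 0.0025). Rfx2, another activator of spermatid genes, was not called (0.21), and Tesmin, a testis DNA-binding protein, fell (-1.72). Of 18 testis kinase and phosphatase genes 11 rose and 1 fell (median 1.84), with Tssk6 at 20.7, 23.6 and 54.5 CPM in PS and at 182, 214 and 176 CPM in RS (2.80). All 6 tested Tssk kinases rose, from 2.02 to 2.80. Of 27 genes of the manchette and head-tail coupling 13 rose and 2 fell (median 0.50), led by Spatc1 (2.68) and Spem1 (2.66), with Gmcl1 (-2.68) and Cntrob (-2.15) lower.

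Of 25 genes of spermatid protein turnover 17 rose and 2 fell (median 1.11), among them the ubiquitin ligase genes Rnf133 (2.64) and Klhl10 (2.33) and the ubiquilin gene Ubqlnl (2.69). Of 22 chaperones 8 rose and 4 fell (median 0.19), with Dnajb8 (2.69) and Hspa1l (2.56) highest. With scaling by library size only 6 chaperones rose and 7 fell. Without PS replicate 3 or RS replicate 1 2 chaperones fell, and without the remaining RS library 1 did. Sperm glycolysis runs on germ cell isozymes, and 10 of 20 genes rose and 2 fell (median 0.71). Gapdhs was at 193, 227 and 375 CPM in PS and at 1079, 1505 and 1365 CPM in RS (2.56), and Pgk2 (1.66), Hk1 (1.79) and Gpi1 (2.03) rose too, and 1 glycolysis gene fell without the remaining PS library or RS replicate 1. Ldhc, the testis lactate dehydrogenase, was among the 10 highest PS transcripts in CPM and was not called (3795 ± 159 CPM in PS and 3547 ± 562 in RS, SD, n = 3, adjusted p = 0.616). Slc2a3, the glucose transporter GLUT3, was at 3840, 3186 and 3450 CPM in PS and at 704, 479 and 556 CPM in RS (-2.37, SE 0.211, adjusted p = 8.9e-06).

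**Figure D3:**
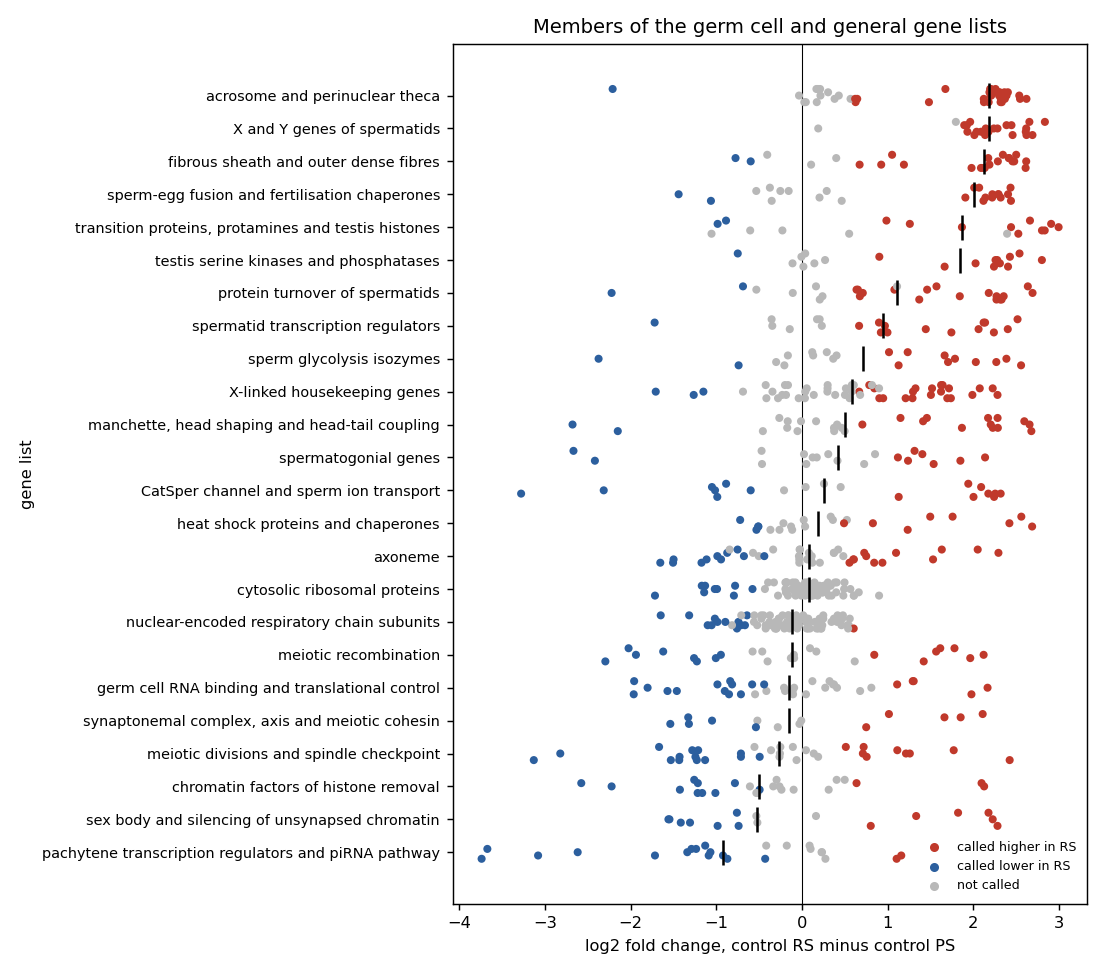
Log2 fold change, control RS minus control PS (x axis), of each tested member of the gene lists (y axis); red points were called higher, blue lower and grey not called, and black bars are list medians. Acrosome, fibrous sheath and fertilisation genes form one cluster near 2 and another near 0, and of the meiotic lists the piRNA list has the lowest median.

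Most genes of the housekeeping lists were not called. Of 81 cytosolic ribosomal protein genes 9 fell and 0 rose (median 0.08), and of 83 respiratory chain genes 12 fell and 1 rose (median -0.11). Both lists were taken by symbol pattern and hold a few related genes that are not subunits, such as Rps19bp1 and Ndufaf3. Without RS replicate 1, 6 ribosomal protein and 8 respiratory chain genes rose, and without RS replicate 3, 22 respiratory chain genes fell. With the replicate number as a block, which compares same-numbered libraries, 7 ribosomal protein genes rose, and 11 respiratory chain genes rose and 28 fell. The block also moved the RNA-binding genes that rose from 5 to 11 and the chromatin factors that rose from 3 to 5. It moved the genes that fell from 2 to 5 in sperm-egg fusion, from 2 to 4 in the transition protein and manchette lists, from 1 to 2 in the spermatid regulators and from 0 to 2 in the endothelial list. Among the 395 genes whose 95% interval lay within 0.5 of no change were the genes of the germ cell RNA-binding proteins Ybx2 (-0.11) and Ybx1 (-0.10) and the chaperonin gene Tcp1 (0.05). Genes detected at 1 CPM or more numbered 14165 ± 283 in PS and 14165 ± 141 in RS (SD, n = 3; exact two-sided permutation p = 1.0, where 0.1 is the smallest possible).

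X- and Y-linked genes rose more often than autosomal genes. Of 615 X-linked genes tested 354 (57.6%) rose and 91 (14.8%) fell, with a median log2 fold change of 1.39. The autosomes had 27.9% higher and 28.7% lower of 14913, with a median of -0.06, and no autosome had over 36.1% higher. X-linked genes made up 0.347%, 0.392% and 0.538% of counts in PS and 0.958%, 1.14% and 0.945% in RS (exact two-sided permutation p = 0.1, the smallest possible with 3 against 3). Every RS library lay above every PS library. On the Y chromosome 10 of 14 genes rose and 0 fell (median 1.94).

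The listed X and Y genes of spermatids rose in 21 of 23 cases with 0 lower (median 2.18). X-linked rises were ranked among called genes with a named symbol, separate groups and at least 20 CPM in RS. The 6 largest of these were Hypm, H2al3, H2al1n, Ppp1r2-ps7, Zcchc13 and Tspan6, at 2.63 to 2.89 (Hypm at 2.21 without RS replicate 3). The H2al histone variants belong to a family of close copies. Zcchc13 was at 7.79, 10.3 and 8.98 CPM in PS and at 44.4, 63.6 and 41.9 CPM in RS. Of 51 X-linked housekeeping genes, chosen for roles outside the testis, 21 rose and 3 fell (median 0.58). Of all X-linked genes tested 57.6% rose and 14.8% fell (median 1.39). The ubiquitin-conjugating enzyme Ube2a (2.23) and the adaptor Sh3kbp1 (2.28) had the largest rises, and Slc25a5 (-1.71), Ddx3x (-1.26) and Hdac6 (-1.15) fell. Slc25a5, an ADP/ATP carrier, was at 15.7, 14.8 and 33.7 CPM in PS and at 4.43, 5.35 and 6.80 CPM in RS. The remaining PS library was highest for all 3 of these genes, and it was also highest in Sertoli and Leydig markers, described below; their part in these falls was not tested.

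Many X-linked housekeeping genes have an autosomal copy that works in the testis, often a retrogene that covers for the silenced X gene in PS. Of 13 listed X-linked partners 5 rose and 0 fell (median 0.60), against 57.6% higher and 14.8% lower of all X-linked genes (median 1.39). Of their 13 autosomal testis copies 5 rose and 3 fell (median 0.40), against 27.9% and 28.7% of all autosomal genes. The X-linked ADP/ATP carrier gene Slc25a5, which fell, is not among these partners. The testis carrier gene Slc25a31 (-0.855) was paired with the autosomal Slc25a4 (-1.551). In 2 pairs the testis copy fell and the X-linked partner rose. Cstf2t, the testis cleavage stimulation factor, was at 91.7, 82.0 and 84.6 CPM in PS and at 27.9, 25.9 and 20.8 CPM in RS (-1.57, adjusted p = 5.82e-05). Its X-linked partner Cstf2 was at 22.6, 25.8 and 25.4 CPM in PS and at 80.1, 76.0 and 94.0 CPM in RS (1.98, adjusted p = 7.17e-06), with no overlap in either gene. Tktl2 fell (-0.90, from 136.6 to 63.0 CPM on average) while the X-linked Tktl1 rose (2.04, from 3.39 to 11.7 CPM). In others the testis copy rose and the partner was not called: Pgk2 (1.66) with Pgk1 (0.30), G6pd2 (2.06) with G6pdx (-0.42) and Ubl4b (2.57) with Ubl4a (0.30). Without the remaining PS library Pgk1 (0.72, adjusted p = 0.0289) and Ubl4a (1.24, adjusted p = 0.0295) were called higher. Across all 41 pairs, 15 testis genes rose and 8 fell, and 9 of 39 tested partners rose and 11 fell. The shares of the partners were not far from the 29.2% higher and 28.2% lower of all genes tested. In 2 pairs of general transcription factors the members moved apart, Taf7l (2.06) from Taf7 (-0.99) and Gtf2a1l (0.67) from Gtf2a1 (-1.05).

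**Figure D4:**
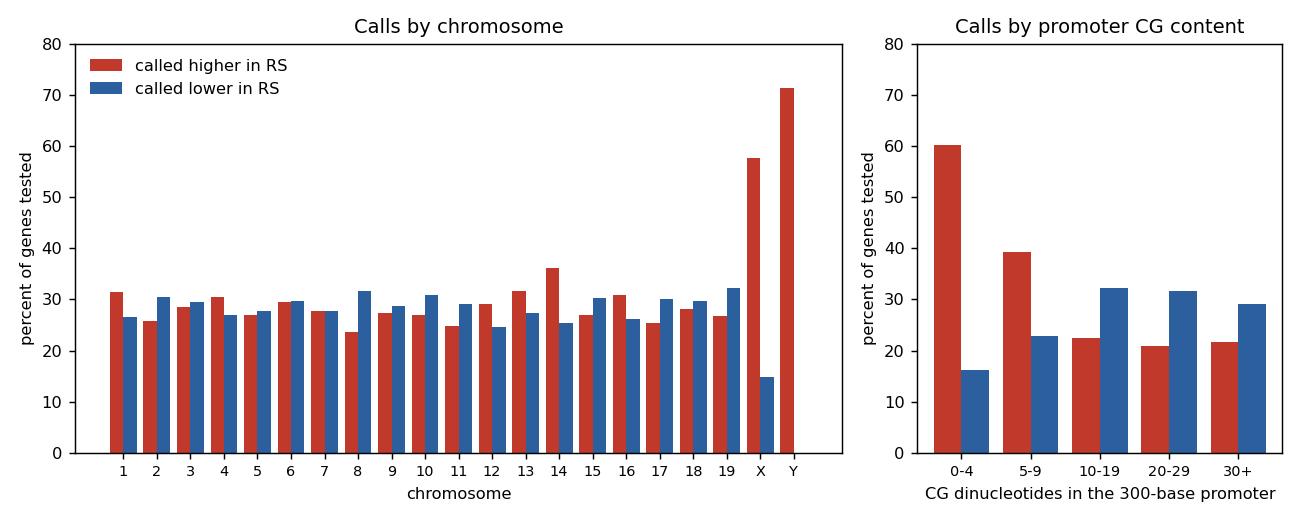
Percent of genes tested (y axes) that were called higher (red) or lower (blue) in RS, by chromosome (left) and by the number of CG dinucleotides in the 300-base promoter (right). The X stands at 57.6% higher and 14.8% lower, and promoters with 0 to 4 CG stand at 60.2% higher and 16.1% lower.

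Genes that rose differed from the others in their promoters. RefSeq promoters (GRCm38.p6, 250 bases before to 50 after the start, 300 in all) were matched to 12432 tested genes, using the first entry of each gene. Of 1783 genes with 0 to 4 CG dinucleotides in the promoter 1074 (60.2%) rose and 287 (16.1%) fell, with a median log2 fold change of 1.69. Of 10649 genes with 5 CG or more 24.1% rose and 30% fell, with a median of -0.13. The share that rose by over 4-fold was 40.7%, 18.4%, 5.53%, 2.90% and 3.10% in promoters with 0 to 4, 5 to 9, 10 to 19, 20 to 29 and 30 or more CG. On the autosomes alone 58.4% of 1641 genes with 0 to 4 CG rose, against 23.1% of 10254 with more, and on the X 81.8% of 137 rose, against 49.2% of 388. These bounds were chosen after the values were seen.

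The promoters were searched on both strands for 6 short motifs. The full cAMP response element TGACGTCA, the site of CREM, was in 3.06% of all 12432 promoters, in 2.51% of the 1354 whose genes rose by over 4-fold and in 1.37% of the 659 whose genes fell by over 4-fold. The short element TGACG, which holds a CG and is part of the full one, was in 29.2%, 17.9% and 21.5%. The RFX site GTTGCC was in 13.7%, 17.8% and 11.8%, and the MYB site TAACNG in 20.3%, 27.7% and 21.4%. The TATA box TATAAA was in 7.79%, 11.8% and 10.2%, and CCAAT in 38.8%, 39.3% and 36.9%. Within promoters of 0 to 4 CG the RFX site was in 20.7% of genes that rose by over 4-fold and in 9.95% of genes not called, while the MYB site was in 32.9% and 31.0%. Within promoters of 5 CG or more the RFX site was in 14.5% and 13.3% and the MYB site in 21.7% and 17.5% of the same sets. The TATA box was in 15.3% and 16.6% of these sets with 0 to 4 CG, and in 7.8% and 5.97% with 5 CG or more. The short element TGACG was in 6.34% and 6.64% with 0 to 4 CG, and in 31.4% and 33.3% with 5 CG or more. The full cAMP response element, lower among genes that rose by over 4-fold than among all promoters, was higher within each class: 4.46% against 3.47% of all with 5 CG or more, and 0.826% (6 of 726) against 0.561% (10 of 1783) with 0 to 4 CG. A match is a description of these letters and not a site of binding.

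The promoters of 5 genes are shown because the genes carry results above and differ in motif and CG content. Capitals mark the full cAMP response element in Spag4 (position -37 from the start, 14 CG) and in Kif17 (-86, 31 CG, with an RFX site in capitals at -73). They mark an RFX site in Spz1 (-13, 0 CG), the TATA box on the other strand in Prm2 (-31, 3 CG) and both MYB sites in Piwil1 (-139 and -64, 18 CG). The sequences, from RefSeq on GRCm38.p6, are chr2:156064963-156065262 on the plus strand for Spag4, chr4:138262001-138262300 on the plus strand for Kif17, chr13:92576183-92576482 on the minus strand for Spz1, chr16:10792056-10792355 on the minus strand for Prm2 and chr5:128735996-128736295 on the plus strand for Piwil1. Each runs 5′ to 3′ along its gene.
Spag4: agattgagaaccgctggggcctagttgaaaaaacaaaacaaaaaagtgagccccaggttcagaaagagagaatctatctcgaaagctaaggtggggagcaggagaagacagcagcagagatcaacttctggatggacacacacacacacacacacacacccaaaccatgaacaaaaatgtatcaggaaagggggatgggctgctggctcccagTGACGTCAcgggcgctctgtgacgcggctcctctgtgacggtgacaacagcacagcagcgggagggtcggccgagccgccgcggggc
Kif17: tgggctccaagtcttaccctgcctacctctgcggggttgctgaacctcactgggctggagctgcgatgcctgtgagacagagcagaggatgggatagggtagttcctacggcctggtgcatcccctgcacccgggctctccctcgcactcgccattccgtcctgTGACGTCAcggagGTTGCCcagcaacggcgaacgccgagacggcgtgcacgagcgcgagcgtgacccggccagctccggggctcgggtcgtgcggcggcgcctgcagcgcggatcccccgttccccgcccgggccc
Spz1: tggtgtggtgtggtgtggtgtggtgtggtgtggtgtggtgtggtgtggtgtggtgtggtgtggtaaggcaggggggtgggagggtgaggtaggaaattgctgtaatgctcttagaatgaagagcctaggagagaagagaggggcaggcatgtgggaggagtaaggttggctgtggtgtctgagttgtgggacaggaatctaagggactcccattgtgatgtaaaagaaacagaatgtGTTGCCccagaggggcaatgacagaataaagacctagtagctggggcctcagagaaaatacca
Prm2: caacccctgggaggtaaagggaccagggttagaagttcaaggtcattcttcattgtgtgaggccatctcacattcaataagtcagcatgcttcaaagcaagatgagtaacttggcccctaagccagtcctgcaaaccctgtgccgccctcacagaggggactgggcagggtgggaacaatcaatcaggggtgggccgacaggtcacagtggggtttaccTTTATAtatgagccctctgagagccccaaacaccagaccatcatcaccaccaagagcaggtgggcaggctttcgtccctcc
Piwil1: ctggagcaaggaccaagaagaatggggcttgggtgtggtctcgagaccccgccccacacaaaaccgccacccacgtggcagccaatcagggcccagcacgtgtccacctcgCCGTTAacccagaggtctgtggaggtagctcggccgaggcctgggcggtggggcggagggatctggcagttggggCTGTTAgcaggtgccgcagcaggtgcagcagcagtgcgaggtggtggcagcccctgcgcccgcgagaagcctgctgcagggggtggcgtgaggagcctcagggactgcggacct

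Spag4, a SUN domain protein of the spermatid nuclear envelope and tail, was at 61.5, 76.6 and 81.8 CPM in PS and at 294, 316 and 306 CPM in RS (2.29, SE 0.165, adjusted p = 5.07e-06). Kif17 was at 139.9, 118 and 147 CPM in PS and at 610.3, 451 and 579.6 CPM in RS (2.24). Spz1, whose promoter holds neither form of the cAMP response element and no CG, rose by 2.52, and RS and PS did not overlap in any of the 3 genes. Long non-coding RNA genes and protein-coding genes with 1 exon also rose more often. Of 1094 long non-coding RNA genes 49.4% rose and 17.1% fell (median 0.86), against 27.5% and 29% of 14289 protein-coding genes. Of 409 protein-coding genes with 1 exon 42.5% rose and 20.3% fell.

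Markers of other testis cells differed between the cell types as well. The Sertoli list, of the somatic cells that hold the germ cells, fell in 20 of 22 genes and rose in 0 (median -2.52). Its summed level was 691, 649.5 and 1664 CPM in PS and 102, 91.6 and 148 CPM in RS. The Leydig list, of the steroid-making cells between the tubules, fell in 12 of 12 (median -3.70), with sums of 494, 514 and 1002 CPM in PS and 26.6, 33.9 and 75.6 CPM in RS. Both sums were highest in the remaining library of each cell type. Insl3 (-3.58), of the Leydig list, lost its call in several alternatives. It was at -2.19 with limma-voom (adjusted p = 0.351) and at -1.05 without the remaining PS library (adjusted p = 0.507). Without that library Amh, Aard, Trf and Vim of the Sertoli list were not called either. Macrophage markers went the other way, 10 higher and 1 lower of 12 (median 2.78), with sums of 28.3, 29.8 and 54.3 CPM in PS and 82.0, 100 and 81.4 CPM in RS. Peritubular and fibroblast markers rose in 8 of 14 and fell in 2 (median 1.35), endothelial markers rose in 3 of 9 and fell in 0, and the 1 red blood cell gene tested, Alas2, fell. Without PS replicate 1 the endothelial genes that rose numbered 1 and the peritubular genes that fell 1, without RS replicate 1 or 3 the endothelial genes that fell numbered 1, and without the remaining PS library 0 macrophage genes fell. Spermatogonial genes rose in 7 of 19 and fell in 2 (median 0.41): Stra8, the retinoic acid target of germ cells entering meiosis, rose from 4.01, 5.52 and 8.40 CPM to 11.3, 19 and 24.5 CPM, and Id4 fell by 2.67.

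**Figure D5:**
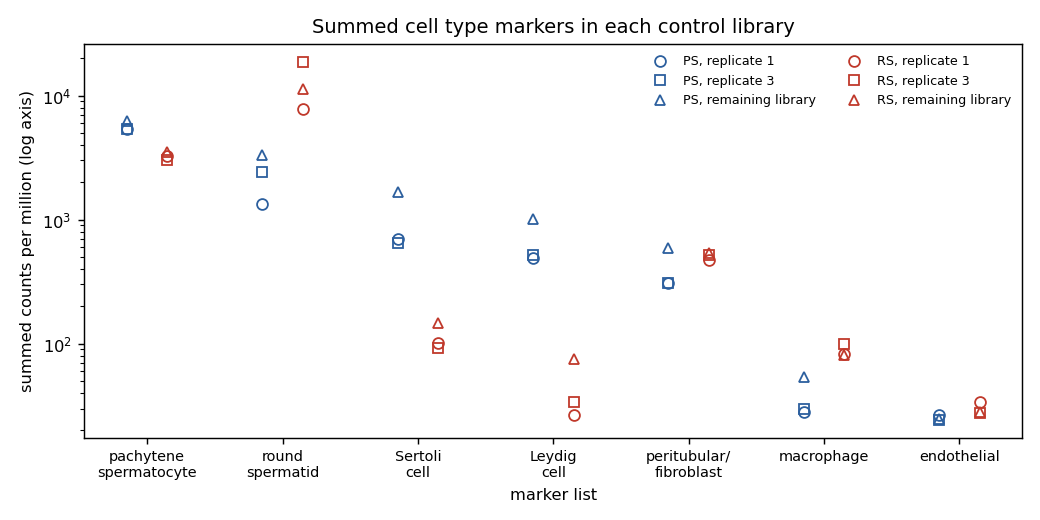
Summed CPM of each marker list on a log axis (y axis) by cell type list (x axis) in each control library; symbols mark the replicate, blue PS and red RS. Sertoli and Leydig sums lie higher in PS, macrophage sums higher in RS, and the peritubular sums overlap.

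Genes of these lists were among the largest changes. The 12 largest falls and rises were taken among called genes with separate groups, a named symbol and at least 20 CPM in the higher group. Symbols without a name were set aside, 4 among the falls and 7 among the rises that ranked above the last gene named. Of these 12 falls, 5 were on the Sertoli or Leydig lists: Hsd17b3, Cyp17a1 and Cyp11a1, enzymes of testosterone synthesis, and Cldn11 and Clu. Cyp17a1 was at 168, 174 and 349 CPM in PS and at 6.12, 5.81 and 24.3 CPM in RS (-4.05, adjusted p = 4.83e-05). Of the others, Pou5f2, a germ cell POU factor, was at 165, 134 and 98.0 CPM in PS and at 6.52, 4.54 and 4.36 CPM in RS (-4.48, SE 0.271, adjusted p = 5.07e-06). The gap junction gene Gja1 (-4.30), the lipocalin gene Lcn2 (-4.41), the riboflavin transporter gene Slc52a3 (-4.13), Ccdc142 (-4.12), Serpina3g (-3.96) and the betaine-homocysteine methyltransferase gene Bhmt (-3.96) made up the rest. Among PS libraries Gja1, Lcn2, Slc52a3 and Serpina3g were highest in the remaining library, as were the Sertoli and Leydig sums. Ccdc142, Bhmt and Pou5f2 were not. Without the remaining RS library Hsd17b3 (-5.65), Cyp17a1 (-4.99), Gja1 (-4.93), Cyp11a1 (-4.91) and Serpina3g (-4.67) fell further. The largest of 12 rises was Dcn, a collagen-binding proteoglycan of the fibroblast list, from 4.35, 6.12 and 7.42 CPM in PS to 56.2, 50.2 and 44.1 CPM in RS (3.31, SE 0.218, adjusted p = 5.07e-06). Defb33 was at 1.32, 2.61 and 4.45 CPM in PS and at 8.33, 42.2 and 12.8 CPM in RS (3.20, and 2.16 without RS replicate 3). Klk1b8 was at 3.84, 10.2 and 11 CPM in PS and at 25.2, 124 and 32.1 CPM in RS (3.12, and 2.01 without RS replicate 3). Both rank next to Dcn among these 12 named rises through that library. Dydc2 (2.98), Bpifa3 (2.87), Ttc24 (2.86) and Cstl1 (2.86) stood among the protamines and X-linked genes. Klk1b8 belongs to a cluster of close kallikrein copies. The part of somatic cells carried with the samples in the changes of these lists and of the other genes named here was not tested.

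The same step was read in the KO libraries, which share no library with the controls. Of 8929 genes called in control cells 8729 (97.8%) moved the same way in KO cells, 7145 were called the same way there and 8 the opposite way. Control values here come from the fit of the 6 control libraries, and KO values from the fit of 12 libraries. Control log2 fold changes shifted by -0.08 at the median in the fit of 12, so the scales differ slightly. For the genes that rose by over 4-fold in controls the median was 2.28 in control cells and 2.27 in KO cells, and 360 of them had a log2 fold change over 3 in KO cells, against 66 in the control cells they were chosen on. For the genes that fell by over 4-fold in controls the median was -2.54 in control cells and -2.01 in KO cells, and 93 of the 874 were lower in KO than in control cells. The round spermatid markers summed to 620.2, 909 and 1384 CPM in KO PS, each below the control PS library of the same number, though the groups overlapped. A test of the difference between the steps, fitted over 12 libraries and 16581 genes, called 3 genes and had 2253 at an unadjusted p under 0.05.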

How the data were processed

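The deposited values are raw counts per gene in 2 tables of 21429 gene symbols. The submitters' processing notes name HISAT2 2.1.0, HTSeq, DESeq2 and mm10. The annotation and the strand setting behind the counts are not stated there, and overlapping, antisense and near-identical genes are therefore uncertain. The other 12 columns of per-sample values were not used.

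Control RS was compared with control PS on the deposited counts with edgeR 4.0.16 (R 4.3.3): filterByExpr, TMM scaling, the quasi-likelihood test with 4 residual degrees of freedom and Benjamini-Hochberg adjustment over 15572 genes. SE and intervals come from the same fit, and the test was checked on simulated data. CPM are counts divided by the library total, so a count of 3 was worth 0.172 to 0.247 CPM in control libraries, for counting error only. Library counts differed between replicates by more than sampling noise (chi-square per gene of 24.6 or more). Deviations of same-numbered PS and RS libraries from their group means correlated at 0.450 to 0.490, and those of different numbers at -0.366 to -0.116, so the fit with the number as a block counts as paired, with the remaining libraries paired by elimination. Gene symbols were matched to RefSeq annotation of GRCm38.p6, 20913 by symbol and 464 by 1 synonym, with 52 unmatched, and exon numbers came from GENCODE M21.

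The genes, lists and tests were chosen with earlier results of these data known. Named genes are the 12 largest called rises and falls with at least 20 CPM in the higher group, separate groups and a named symbol, and the 6 largest X-linked rises by the same criteria. The others are the 10 most abundant in each cell type, list and pair members, and the most abundant with an interval within 0.5 of no change. The alternatives were other scalings, DESeq2 1.42.0, limma-voom (3.58.1), no filter, all 12 libraries, the replicate block, a 2-fold test and leaving out libraries.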

Additional observations from a re-analysis of the deposited data

Results flagged for a closer look

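The step from PS to RS differed between control and KO cells in 3 genes by the test of the difference itself, which covered 16581 genes in a fit of 12 libraries. Cspg4, a membrane proteoglycan gene, was at 1.66, 1.07 and 1.81 CPM in control PS and at 1.11, 1.09 and 1.83 CPM in control RS. It was at 0.233, 0.0587 and 0.149 CPM in KO PS, under the floor of 3 counts in 2 of the 3 libraries, and at 1.99, 4.05 and 4.11 CPM in KO RS. The control step minus the KO step was -4.34 on the log2 scale (SE 0.706, adjusted p = 0.0487), a fitted value that depends on the low counts of KO PS. For Gclc, a subunit of the enzyme that starts glutathione synthesis, the difference was -1.68, and for Gse1 it was -2.03. In the fit of 12 libraries Gclc fell by 2.25 and Gse1 by 1.73 on the log2 scale in control cells. These tests rest on edgeR alone.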

How the results depend on the processing

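Across 15 alternatives 0 genes called in either direction were called the opposite way. Genes higher and lower in RS numbered 2557 and 1577 against a 2-fold change, where 142 genes with 0 to 4 CG in the promoter and 2 testis genes of the pairs were lower. The 41.3% of calls that were higher with scaling by library size only compares with 50.9% under TMM, and that scaling moved the median of all genes by -0.22. With it 3850 genes were higher and 5473 lower, and 25 of 824 genes compared lost their call and 44 gained one; 19 respiratory chain, 4 glycolysis, 4 sperm-egg fusion, 4 manchette, 4 transition protein and 3 spermatid regulator genes fell, and 1 endothelial, 1 piRNA pathway and 0 respiratory chain genes rose. With the replicate block 5485 genes were higher and 5587 lower, 8928 of the 8929 calls were shared, and among the 824 genes compared 0 lost and 106 gained a call; beside the gains given with the genes and lists it changed no other call named in the text. Leaving out 1 library gave 4146 to 4547 higher and 3779 to 4228 lower, 332 to 386 X-linked genes higher and 81 to 97 lower, 1060 to 1092 genes with 0 to 4 CG higher and 248 to 297 lower, and 13 to 15 testis genes of the pairs higher and 6 to 9 lower. Scaling by library size only also called Hspa2 (-0.48) and Clgn (-0.47) lower. Counts of list members moved by over 1.5 times in 3 to 5 of 64 cases when 1 library was left out. Beside those given with the lists, 1 piRNA pathway gene rose without PS replicate 1, PS replicate 3 or the remaining RS library, 1 fibrous sheath gene fell without the remaining RS library, 2 spermatid regulators fell without the remaining PS library, and 0 to 2 respiratory chain genes rose without a library other than RS replicate 1. Without both remaining libraries 3905 were higher and 3370 lower, and 56 genes lost their call, among them Dnah2 (-1.65, adjusted p = 0.0508), Dnah8, Tex12, H2afx and H2afz. In that fit 3 synaptonemal genes and 7 axoneme genes fell. The other settings gave 4554 to 4754 higher and 4365 to 5130 lower. With 3 libraries a group, an exact test of a single value cannot go below 0.1.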

Other observations

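The most abundant transcripts of RS changed in part. Of the 10 most abundant in RS, Akap12, an anchor for protein kinase A, was at 1314, 1096 and 1278 CPM in PS and at 4026, 2206 and 3179 CPM in RS (log2 fold change 1.57, adjusted p = 0.000214). Phf7, a reader of histone H3 methylation in spermatids, was at 2405, 2410 and 2252 CPM in PS and at 2458, 2518 and 2584 CPM in RS and was not called (0.31, adjusted p = 0.167).

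Long non-coding RNAs moved in both directions at high levels. Among those called, 1700027A15Rik was at 33.7 CPM in PS and 259 CPM in RS on average (3.21), and 9330102E08Rik was at 419 CPM in PS and 59.7 CPM in RS (-2.58). Both were chosen after their values were seen. The X-linked RNA Xist was at 1.26, 0.772 and 0.906 CPM in PS and at 2.97, 2.01 and 3.06 CPM in RS (1.64, adjusted p = 0.00296).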
